A study of Mus musculus with 830 samples.

Results

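Cells caught by 2 reporters of the endocrine gene Neurog3, named Ngn3 in the labels, were compared one by one in mouse embryos with 27 somites. The comparison holds 95 of the 830 cells of the series, chosen by the reporter and the stage in the cell names: 69 Ngn3Cre cells and 26 HZ cells. Ngn3Cre cells came from embryos with Ngn3-Cre and the reporter Ai6, and HZ cells from embryos labelled Ngn3-GFP/+, all on a mixed C57BL/6XC3H background. Tissue labelled endoderm was dissociated with trypsin, stained for EpCAM and sorted without dead cells, and each cell gave 1 Smart-seq3xpress library. The sort gates for EpCAM and for the reporters were not stated in the labels. In the Ngn3Cre embryos Cre switches on a fluorescent protein for good, so a cell that once used the Neurog3 promoter and all its descendants stay labelled. In the Ngn3-GFP embryos the label follows the promoter itself and fades as the protein decays. The labels do not say whether the GFP allele replaces a copy of Neurog3. The reporter, the allele and the embryos differ together, so their parts in any difference cannot be told apart.

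The labels name no embryo. Each group is therefore 1 pool of cells, and no test between the groups is possible at 27 somites. A gene's reads were summed over the cells of a group and scaled to the group's total (pool CPM), and a difference is log2 of (Ngn3Cre pool CPM + 1) over (HZ pool CPM + 1). Exact Poisson intervals for sums and exact binomial (Clopper-Pearson) intervals for shares of cells cover counting error only, at 95%, and reads without a stated molecule count are not independent molecules. Ngn3Cre cells had 2154 to 2280074 reads, with a median of 568386, and HZ cells 119398 to 1831854, with a median of 645375. Under 100000 reads were 6 Ngn3Cre cells and 0 HZ cells. Reads of Y-linked genes without Xist were found in 52 Ngn3Cre and 19 HZ cells, and Xist without Y-linked genes in 13 Ngn3Cre and 6 HZ cells, so each pool held cells of both sexes. In pools of cells, fewer cells that use a gene and less RNA of it per cell cannot be told apart, and values per cell are therefore given beside the pools.

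The first endocrine cells of the pancreas and gut arise from an epithelium in which Neurog3 is switched on for a short time. Such a cell leaves the cell cycle, turns on Neurod1, Pax4, Pax6 and Fev, and then makes a hormone, in the early pancreas mostly glucagon (Gcg) or ghrelin (Ghrl). Neurog3 is also used outside the endoderm, in parts of the developing nervous system.

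Neurog3 itself (chr10:62133090-62134763 in GRCm38, plus strand, gene models of GENCODE vM21 here and below) was read in both groups. Its pool level was 201 CPM in Ngn3Cre (197 to 205) and 81.1 CPM in HZ (77.0 to 85.3), a log2 difference of 1.30. Per cell it spanned 0 to 2744 CPM with a median of 4.28 in Ngn3Cre, and 0 to 1165 CPM with a median of 9.82 in HZ. The pool was higher in Ngn3Cre although the median cell was lower, and the cells of the groups overlapped over nearly the whole range. At 10 CPM or more it was found in 27 of 69 Ngn3Cre cells (39.1%, 27.6% to 51.6%) and in 13 of 26 HZ cells (50.0%, 29.9% to 70.1%).

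To describe the cells, each was put into the first class it met: Gcg-high (Gcg at 1000 CPM or more), Ghrl-high (1000 CPM), Epcam-low (Epcam, the gene of the stained surface protein, under 50 CPM), Neurog3-high (100 CPM) or remaining. These cutoffs were set after the values were seen, and a class is a range of expression, not a cell type. Ngn3Cre cells comprised 25 Gcg-high, 14 Ghrl-high, 12 Epcam-low, 12 Neurog3-high and 6 remaining cells. HZ cells comprised 8 Gcg-high, 2 Ghrl-high, 9 Epcam-low, 2 Neurog3-high and 5 remaining cells. Gcg-high cells outnumbered Ghrl-high and Neurog3-high cells in both groups, at 36.2% of Ngn3Cre cells (25.0% to 48.7%) and 30.8% of HZ cells (14.3% to 51.8%). Ghrl-high cells were 20.3% of Ngn3Cre cells (11.6% to 31.7%) and 7.69% of HZ cells (0.946% to 25.1%). Epcam-low cells made up 17.4% of Ngn3Cre cells (9.32% to 28.4%) and 34.6% of HZ cells (17.2% to 55.7%). The intervals of the groups overlap in every class. The highest Epcam value inside the class and the lowest among other cells without high Gcg or Ghrl were 31.7 and 51.6 CPM in Ngn3Cre, and 29.5 and 56.1 CPM in HZ. Another 4 Ngn3Cre cells and 0 HZ cells were under 50 CPM but high in a hormone, and all 4 had under 100000 reads, while each Epcam-low cell had at least 172696 reads in Ngn3Cre and 119398 in HZ. Those 4 included Gcg-high cells with Pax6 at 0 CPM and with 5571 and 904 CPM of Crabp1, a gene high in many Ngn3Cre Epcam-low cells. The others had Pax6 at 185 and 369 CPM. Within 2-fold of the Gcg cutoff lay 3 Ngn3Cre and 0 HZ cells, and of the Ghrl cutoff 9 Ngn3Cre and 4 HZ cells.

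**Figure D1:**
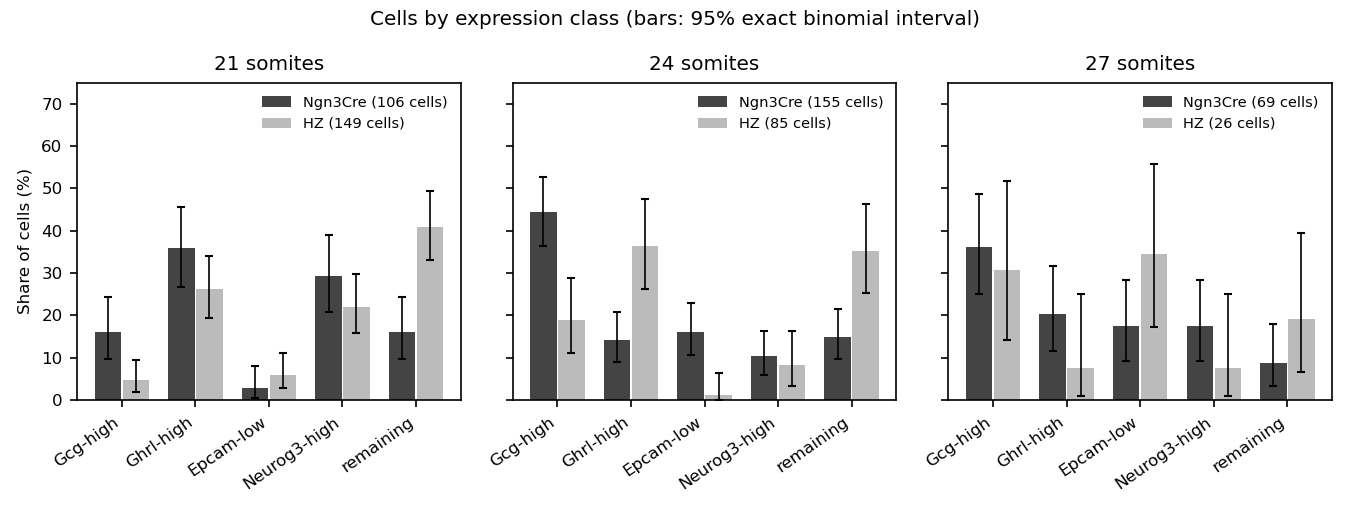
Share of cells (vertical axis, percent) in each of 5 expression classes at 21, 24 and 27 somites, Ngn3Cre in dark and HZ in light bars, with 95% exact binomial intervals. At 27 somites the Epcam-low class held 17.4% of Ngn3Cre and 34.6% of HZ cells, and the intervals overlap there in all 5 classes.

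Epcam-low cells lacked a second mark of the epithelium that the endoderm label implies. Cdh1, the epithelial cadherin, was at 10 CPM in 0 of the 12 Ngn3Cre and 0 of the 9 HZ cells, while its pool level over all cells was 49.2 CPM in Ngn3Cre and 45.6 CPM in HZ. Cells of other classes also lacked it: it was at 10 CPM in 15 of 25 Ngn3Cre and 8 of 8 HZ Gcg-high cells, and in 5 of 12 and 1 of 2 Neurog3-high cells. Other epithelial genes were read in the class. Of 21 adhesion genes 8 were measured there, with sums of 599 CPM in Ngn3Cre and 228 CPM in HZ, against 2777 and 2914 CPM without the class. The Epcam-low cells carried Isl1, which endocrine cells and neurons share, at 10 CPM in 12 of 12 Ngn3Cre and 9 of 9 HZ cells, and Neurod1 in 11 of 12 and 9 of 9. Pax6, an endocrine and neural factor, had a median of 7.46 CPM in Ngn3Cre and 1.09 CPM in HZ, with 1 Ngn3Cre cell at 2221 CPM and no HZ cell above 9.70 CPM. Most cells of the class were high in the neuronal tubulin Tubb3, with a median of 2243 CPM in Ngn3Cre and 2130 CPM in HZ, and 2 Ngn3Cre cells and 1 HZ cell were under 100 CPM. The neuronal RNA-binding protein Elavl3 had a median of 225 CPM in Ngn3Cre and 398 CPM in HZ, and was at 10 CPM in 9 of 12 and 9 of 9 cells. Neurog3 was at 10 CPM in 2 of the 12 Ngn3Cre and 6 of the 9 HZ Epcam-low cells. Nearly every cell had 3 or more of 20 neural and neural crest markers at 10 CPM (64 of 69 Ngn3Cre and 26 of 26 HZ cells), and likewise of the endocrine markers (67 of 69 and 25 of 26), so these counts do not separate the class. The summed level of the 19 neural and neural crest markers reported here was higher in it. In Epcam-low cells its median was 9375 CPM in Ngn3Cre (73.0 to 27599) and 4011 CPM in HZ (222 to 14142). In the other cells it was 1251 CPM in Ngn3Cre (81.1 to 9089) and 1038 CPM in HZ (66.2 to 3961), and the ranges overlap. The class holds cells with and without these marks and is called here by its rule.

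Of 26313 genes in the table, 7841 reached 20 CPM in the higher pool and are called measured here. Of these, 390 (4.97%) were at least 2-fold higher and 496 (6.33%) at least 2-fold lower in Ngn3Cre, with a median log2 difference of 0.04 over all of them. Without the Epcam-low cells, 57 Ngn3Cre and 17 HZ cells gave 334 higher genes (4.29% of 7794) and 422 lower genes (5.41%). Of the 390 higher genes 215 stayed past 2-fold in those cells, and of the 496 lower genes 296. Within the Epcam-low cells alone, 1243 genes (15.9% of 7833) were at least 2-fold higher and 948 (12.1%) lower. These pools hold only 12 Ngn3Cre and 9 HZ cells, and the part of that small number in the counts was not tested. The 25 Ngn3Cre and 8 HZ Gcg-high cells gave 694 higher (9.20% of 7545) and 514 lower genes (6.81%).

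Epcam-low cells of the groups carried different genes, most of which were picked after their values were seen. Of the 19 neural and neural crest markers 12 were measured in this class, with 10 at least 2-fold higher in Ngn3Cre and 0 lower (median 3.88), beside 15.9% of all genes higher. Over all cells 5 of 12 were higher and 1 lower (0.62), beside 4.97% and 6.33% of all genes. Without Epcam-low cells 1 and 1 of 9 were (-0.03), beside 4.29% and 5.41% of all genes. Tlx2, a homeobox gene of neural crest derivatives, was at 10 CPM in 9 of 12 Ngn3Cre cells, with a median of 136 CPM, and in 1 of 9 HZ cells, at 109 CPM. Isl2, a factor of motor and sensory neurons, was at 10 CPM in 10 of 12 Ngn3Cre and 3 of 9 HZ cells, with medians of 199 and 1.09 CPM. Crabp1, which binds retinoic acid, had 8.92 to 9385 CPM with a median of 4139 in Ngn3Cre, and 0 to 7127 CPM with a median of 17.2 in HZ. The ranges of Crabp1 overlapped, with 1 HZ cell as high as the high Ngn3Cre cells. Slc18a3, the vesicular acetylcholine transporter, was at 10 CPM in 8 of 12 Ngn3Cre and 1 of 9 HZ cells. Of the Hox genes, which mark position along the body axis, Hoxb5 was at 10 CPM in 7 and Hoxa3 in 6 of the 12 Ngn3Cre cells, and each in 1 of the 9 HZ cells, at 16.8 CPM. Of 39 Hox genes 9 were measured in that class, 8 of them at least 2-fold higher and 1, Hoxd13, at least 2-fold lower in Ngn3Cre (median 4.16). Of all genes measured in the class 15.9% were higher and 12.1% lower.

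Other genes were read mostly in the HZ cells of this class. Fgf8 was at 0 in all 12 Ngn3Cre cells and at 10 CPM in 6 of 9 HZ cells, with a median of 60.2 CPM in HZ. Fgf10 and Fgf3 were at 10 CPM in 1 of 12 Ngn3Cre cells each and in 6 of 9 HZ cells each, with HZ medians of 114 and 123 CPM. The ephrin receptor Epha7 was at 10 CPM in 1 of 12 Ngn3Cre and 8 of 9 HZ cells, with highest values of 53.6 and 437 CPM. Sox2, a factor of neural and sensory progenitors, was at 0 in all 12 Ngn3Cre cells and at 10 CPM in 5 of 9 HZ cells. Pou4f1, a factor of sensory neurons, was instead read in most cells of both groups. It was at 10 CPM in 9 of 12 Ngn3Cre and 8 of 9 HZ cells, with medians of 106 and 571 CPM and highest values of 2817 and 3331 CPM. Tlx2, Hoxb5 or Hoxa3 was at 10 CPM in 10 of 12 Ngn3Cre and 1 of 9 HZ cells, and Fgf8, Fgf10 or Fgf3 in 2 of 12 and 7 of 9. Both sets met in 2 Ngn3Cre cells and 0 HZ cells.

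**Figure D2:**
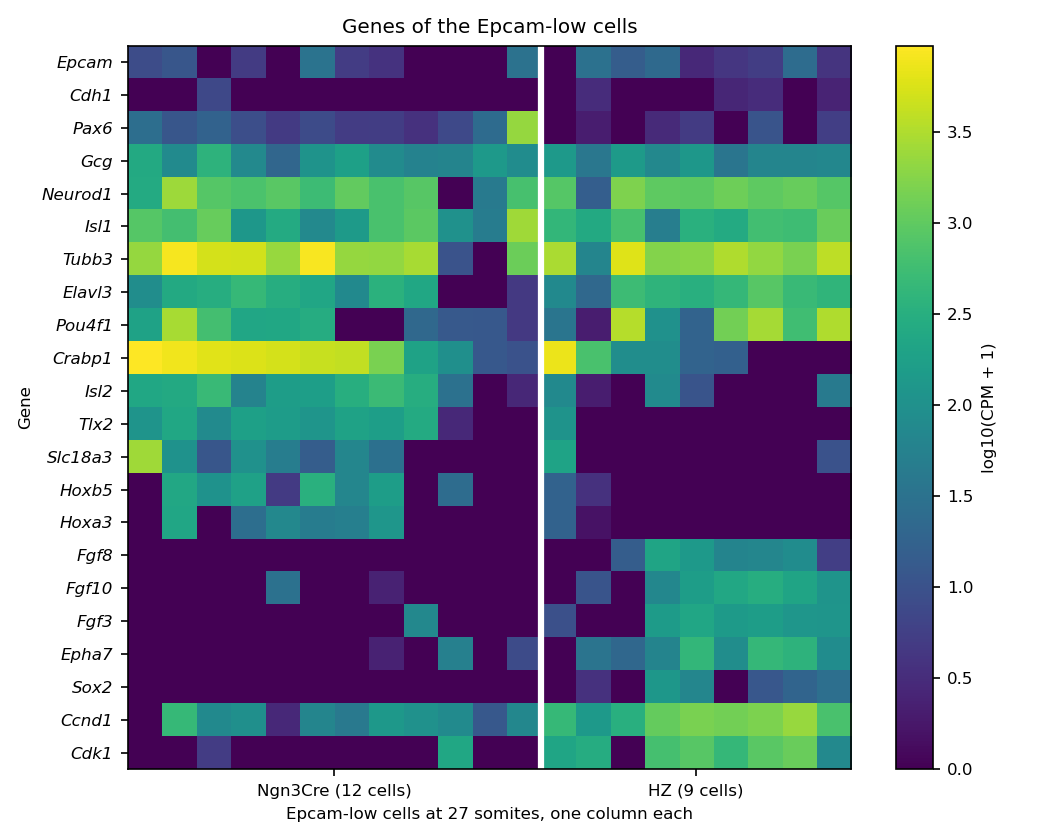
Heat map of log10(CPM + 1) for 22 genes (rows) in the 21 Epcam-low cells at 27 somites (columns), 12 Ngn3Cre cells left of 9 HZ cells, each group sorted by Crabp1. Tlx2 is at 10 CPM in 9 of the Ngn3Cre cells and in the first HZ cell, and Fgf8 in 6 HZ cells and no Ngn3Cre cell.

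The share of Epcam-low cells had no fixed order between the reporters. At 21 somites the class held 3 of 106 Ngn3Cre cells (2.83%, 0.587% to 8.05%) and 9 of 149 HZ cells (6.04%, 2.80% to 11.2%). At 24 somites it held 25 of 155 Ngn3Cre cells (16.1%, 10.7% to 22.9%) and 1 of 85 HZ cells (1.18%, 0.0298% to 6.38%), where the intervals do not overlap.

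Several of the genes lowest in Ngn3Cre were read mainly in HZ Epcam-low cells and a few other HZ cells. Fgf10 had 0.767 CPM in the Ngn3Cre pool and 74.1 CPM in the HZ pool (log2 difference -5.41), and was at 10 CPM in 2 of 69 Ngn3Cre and 8 of 26 HZ cells. Without Epcam-low cells it had 0.0528 CPM in Ngn3Cre and 37.0 CPM in HZ, where it was at 10 CPM in 1 of 57 Ngn3Cre and 2 of 17 HZ cells. Those 2 HZ cells were of the remaining class, with 143 and 56.1 CPM of Epcam, the lower just above the cutoff, and with Cdh1 at 0 and 2.08 CPM. They also read Fgf8 at 59.7 and 77.9 CPM, like many HZ Epcam-low cells. Rgs13, Fgf8 and Mmp16 had -3.78 to -5.27 over all cells, and -5.33, -3.50 and -4.59 without Epcam-low cells. Rgs13 and Mmp16 were not tied to the class. In HZ, Rgs13 had 48.5 CPM inside it and 66.0 CPM outside, and Mmp16 23.5 and 25.0 CPM. For Rgs13, 1 HZ cell held 61.9% of the HZ reads, and the highest HZ cell, at 691 CPM, lay outside the class. Laptm5, a lysosomal membrane protein, had 0.701 CPM in Ngn3Cre and 28.7 CPM in HZ (-4.13), and -0.50 without Epcam-low cells. Ccnd1, cyclin D1, had 32.3 CPM in Ngn3Cre and 631 CPM in HZ (-4.25), and -4.06 without Epcam-low cells, where the same 2 HZ cells reached 1325 and 3044 CPM and every other HZ cell was at 63.2 CPM or less. Epha7 had -4.93 over all cells and -5.13 without them, where 1 HZ cell reached 894 CPM. Outside the class the median HZ cell had 8.13 CPM of Ccnd1 and 11.0 CPM of Epha7, and within Gcg-high cells the differences were 0.56 and -0.52.

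Large positive differences were found in Fev, Cartpt, Bhlhe41 and Per3. Fev (chr1:74881509-74885419, minus strand), an ETS factor that follows Neurog3, had 70.7 CPM in Ngn3Cre and 8.64 CPM in HZ (2.89), and 2.44 without Epcam-low cells. It was at 10 CPM in 23 of 69 Ngn3Cre cells (33.3%, 22.4% to 45.7%) and 5 of 26 HZ cells (19.2%, 6.55% to 39.4%), and in 1 of the 12 Ngn3Cre and 0 of the 9 HZ Epcam-low cells. Cartpt, a secreted neuropeptide, had 226 CPM in Ngn3Cre and 5.85 CPM in HZ (5.05), but 1 Ngn3Cre cell held 56.1% of its reads. Bhlhe41 and Per3, a pair of genes known from the circadian clock, were higher by 3.08 and 2.99. Bhlhe41 reached 10 CPM in 46 of 69 Ngn3Cre and 10 of 26 HZ cells, and no cell held more than 14.2% of its Ngn3Cre reads. The carbonic anhydrase Car3, the interleukin receptor Il1r1 and the class I antigen H2-K1 were higher by 3.33, 2.80 and 2.68. Car3 was at 10 CPM in 17 of 69 Ngn3Cre (24.6%) and 7 of 26 HZ cells (26.9%), and 1 Ngn3Cre cell held 46.5% of its Ngn3Cre reads. Slc18a3 had 49.7 CPM in Ngn3Cre and 1.75 CPM in HZ (4.21), and 1 Ngn3Cre cell held 45.7% of its reads. Reads of H2-K1 can fall on near-identical copies such as H2-D1, so its value is uncertain.

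Hormone genes were mostly higher in Ngn3Cre, with a median of 1.84 against 0.04 over all measured genes. Of 10 hormone genes measured out of 16 listed, 7 were at least 2-fold higher and 1 lower, beside 4.97% and 6.33% of all genes. Ghrl (chr6:113716119-113719880, minus strand), the gene of ghrelin, led them. Its pool level was 9525 CPM in Ngn3Cre (9497 to 9553) and 1011 CPM in HZ (996 to 1025), a log2 difference of 3.24. Per cell it ran from 0 to 81125 CPM with a median of 332 in Ngn3Cre, and from 8.63 to 8316 CPM with a median of 91.0 in HZ. The highest Ngn3Cre cell was well above the highest HZ cell, and the low cells of the groups overlapped. Ghrl-high cells had a median of 34068 CPM in Ngn3Cre (14 cells) and values of 1451 and 8316 CPM in the 2 HZ cells. Within Gcg-high cells the Ghrl pool was 7533 CPM in 25 Ngn3Cre cells and 1937 CPM in 8 HZ cells. The medians there were closer, at 986 CPM in Ngn3Cre (0 to 36833) and 572 CPM in HZ (54.3 to 5655), and the ranges overlap.

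Glucagon did not follow ghrelin. Gcg (chr2:62474530-62483650, minus strand) had 10698 CPM in Ngn3Cre (10668 to 10728) and 10233 CPM in HZ (10187 to 10280), a log2 difference of 0.06. Within Gcg-high cells it was at 1137 to 75548 CPM in Ngn3Cre and 7527 to 55081 CPM in HZ, with medians of 21356 and 34763 CPM. Gcg reads were also present at 19.6 to 373 CPM in the Ngn3Cre and 34.2 to 144 CPM in the HZ Epcam-low cells, so a level of 10 CPM does not mark a cell that makes glucagon. Pyy, peptide YY, was likewise close between the pools, at 2886 CPM in Ngn3Cre and 3329 CPM in HZ (-0.21). Within Gcg-high cells it was lower in Ngn3Cre, at 6254 CPM (median 4086) against 10921 CPM in HZ (median 10302), a difference of -0.80, and without Epcam-low cells the difference was -0.71.

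Other hormone genes were higher in Ngn3Cre. Secretin (Sct) had 181 CPM in Ngn3Cre and 32.2 CPM in HZ (2.45), and was at 10 CPM in 60 of 69 Ngn3Cre and 11 of 26 HZ cells. Galanin (Gal) had 509 CPM in Ngn3Cre and 93.6 CPM in HZ (2.43), with medians over cells of 355 and 22.4 CPM. Both genes were also read in Epcam-low cells: Sct was at 10 CPM in 11 of 12 Ngn3Cre and 1 of 9 HZ cells of that class, and Gal in 9 and 6. Without that class the differences were 1.80 for Sct and 1.79 for Gal, and within Gcg-high cells 2.21 and 1.73. Pancreatic polypeptide (Ppy) and amylin (Iapp) were higher by 2.59 and 1.75, and Ins1, an insulin gene, by 1.94. Within Gcg-high cells Ppy had 2.36, but Iapp had 0.09 and Ins1 -0.14. The other insulin gene, Ins2, was lower, at 21.9 CPM in Ngn3Cre and 62.4 CPM in HZ (-1.47), with a difference of -2.05 within Gcg-high cells.

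**Figure D3:**
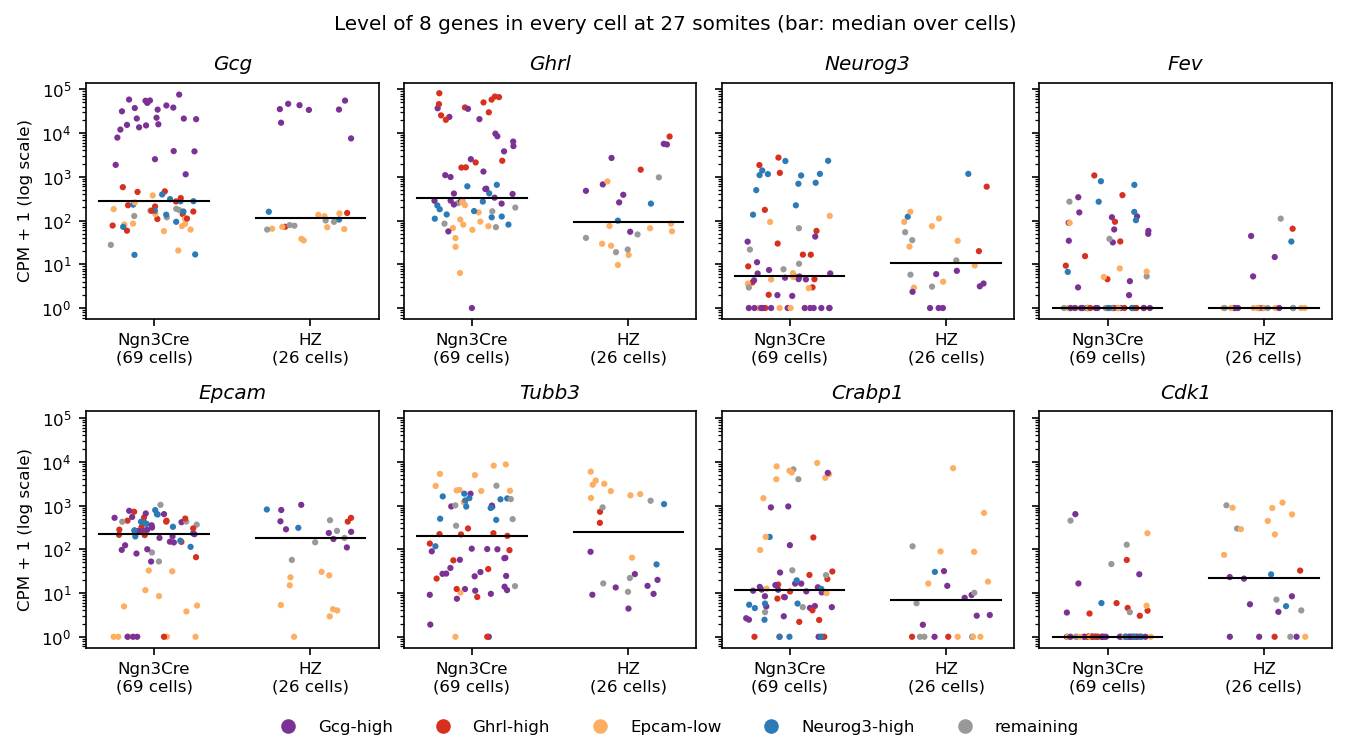
CPM + 1 on a log scale for 8 genes in each of 69 Ngn3Cre cells (left in each panel) and 26 HZ cells (right) at 27 somites, coloured by expression class, with a bar at the median over cells. The highest Ghrl cells are Ngn3Cre cells, and the highest Tubb3 cells of both groups are Epcam-low.

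Endocrine transcription factors were more often higher than lower in Ngn3Cre. Of 22 measured out of 26 listed, 9 were at least 2-fold higher and 1 lower (median 0.74), beside 4.97% and 6.33% of all genes. Without Epcam-low cells 6 were higher and 0 lower of 22 (median 0.45), beside 4.29% and 5.41% of all genes. Nkx2-2 had 87.1 CPM in Ngn3Cre and 23.4 CPM in HZ (1.85), and Mlxipl, a glucose-responsive factor, 41.7 and 10.9 CPM (1.84). Pax6 had 485 CPM in Ngn3Cre and 165 CPM in HZ (1.55), and Pax4 67.0 and 23.1 CPM (1.49). Without Epcam-low cells Pax6 had 0.99 and Pax4 1.02, and within Gcg-high cells 0.43 and 0.44. Neurod1 had 472 CPM in Ngn3Cre and 561 CPM in HZ (-0.25), and 0.16 without Epcam-low cells, which carry it. Sox4 was the 1 lower factor, at 5.96 CPM in Ngn3Cre and 20.9 CPM in HZ. Within Gcg-high cells 3 of 20 factors were higher and 0 lower, with a median of 0.05, beside 9.20% of all 7545 measured genes higher and 6.81% lower there.

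Granule genes, whose products process and store hormones, counted 11 higher and 0 lower of 26 measured out of 30 (median 0.91), beside 4.97% of all genes higher, and 5 higher and 0 lower without Epcam-low cells (0.72). The prohormone convertase Pcsk1 had 213 CPM in Ngn3Cre and 88.6 CPM in HZ (1.26), and chromogranin A (Chga) 380 and 155 CPM (1.29). The zinc transporter Slc30a8 had 22.3 CPM in Ngn3Cre and 6.18 CPM in HZ (1.70). Pcsk1 and Chga were under 2-fold without Epcam-low cells (0.93 and 0.94). Within Gcg-high cells 3 of 27 were higher and 1 lower, with a median of 0.36, a count near the 9.20% of all genes higher there. Early alpha cell genes, tied to glucagon cells, had 1 higher and 0 lower of 14 measured (0.41), and a median of -0.01 without Epcam-low cells. Channel and nutrient-sensing genes had 3 higher and 0 lower of 11 measured (0.83, and 0.26 without those cells), with the calcium channel Cacna1c at 98.2 CPM in Ngn3Cre and 25.5 CPM in HZ.

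All 26 listed genes of the G2 and M phases were measured, and all 26 were at least 2-fold lower in Ngn3Cre (median -2.63), beside 6.33% of all genes. Their summed level per cell had a median of 122 CPM in Ngn3Cre and 266 CPM in HZ. A sum of 1000 CPM or more was found in 9 of 69 Ngn3Cre cells (13.0%, 6.14% to 23.3%) and 11 of 26 HZ cells (42.3%, 23.4% to 63.1%). Of the 11 HZ cells 8 were Epcam-low. Within that class the count was 3 of 12 Ngn3Cre and 8 of 9 HZ cells, with medians of 194 and 7283 CPM. Outside it the count was 6 of 57 Ngn3Cre cells (10.5%) and 3 of 17 HZ cells (17.6%), with intervals that overlap. The medians there were 116 CPM in Ngn3Cre and 190 CPM in HZ. Of the 6 Ngn3Cre cells, 3 were Gcg-high cells with under 100000 reads and 3 were of the remaining class. Those of the remaining class included cells with 83.4 and 51.6 CPM of Epcam, 0 CPM of Cdh1, and 6701 and 3989 CPM of Crabp1. Of the 3 HZ cells, 1 was Ghrl-high and 2 of the remaining class, the same 2 that read Fgf10. Without Epcam-low cells 22 of 24 measured genes were at least 2-fold lower (median -1.57), beside 5.41% of all genes. That set keeps the cells of the remaining class. Neurog3-high cells reached 1000 CPM in 0 of 12 Ngn3Cre cells, with an exact interval of 0% to 26.5%, and in 0 of 2 HZ cells.

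Cdk1 (chr10:69335146-69352938, minus strand), the kinase that starts mitosis, had 29.2 CPM in Ngn3Cre and 275 CPM in HZ (-3.19), and -1.92 without Epcam-low cells. Per cell it ran from 0 to 635 CPM with a median of 0 in Ngn3Cre, and from 0 to 1166 CPM with a median of 21.2 in HZ. It was at 10 CPM in 8 of 69 Ngn3Cre and 14 of 26 HZ cells, and 1 Ngn3Cre cell held 69.5% of its Ngn3Cre reads. The spindle protein Aspm (-3.42), the kinetochore proteins Ndc80 (-3.33) and Cenpf (-3.22) and the proliferation marker Mki67 (-2.35) were lower alike. S phase genes were at least 2-fold lower in 11 of 21 measured (median -1.01) and in 6 of 16 without Epcam-low cells (-0.71), beside 6.33% and 5.41% of all genes. Within Gcg-high cells 3 of 10 S phase genes were higher and 1 lower (0.21), beside 9.20% and 6.81% of all genes. Of the G2 and M phase genes only 2 were measured in Gcg-high cells, and 0 passed 2-fold. Clspn, a replication checkpoint adaptor, had 3.09 CPM in Ngn3Cre and 44.3 CPM in HZ (-3.47), and Rrm2, a subunit of ribonucleotide reductase, 61.8 and 345 CPM (-2.46). Of cell cycle inhibitors, 0 were higher and 1, Gadd45g, lower of 10 measured.

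**Figure D4:**
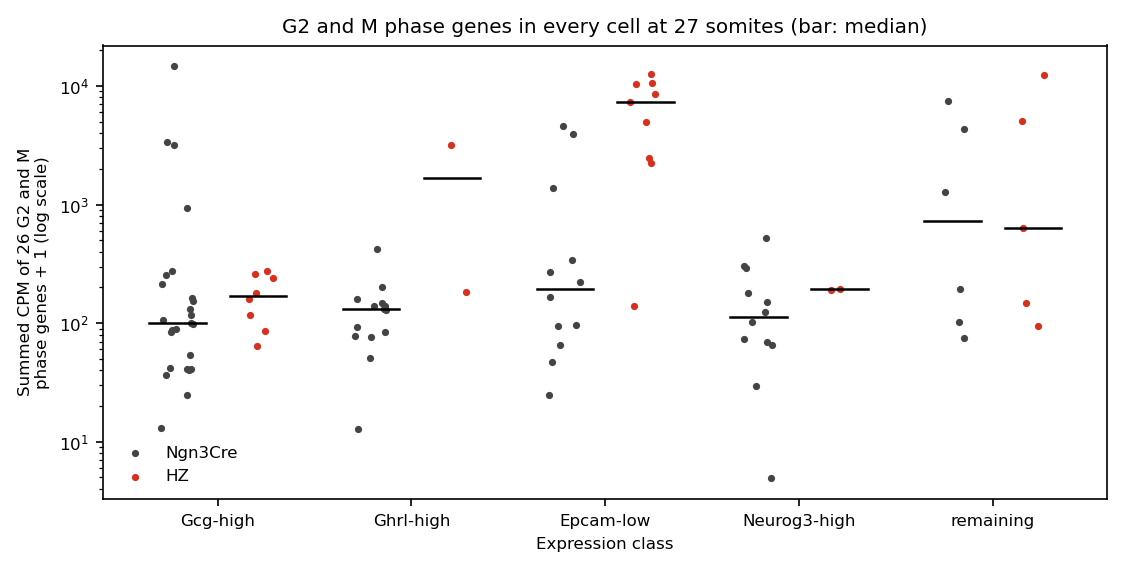
Summed CPM of the 26 G2 and M phase genes plus 1 (log scale) in every cell at 27 somites by expression class, Ngn3Cre in grey left of HZ in red, with a bar at the median. In the Epcam-low class the medians are 194 CPM in Ngn3Cre and 7283 CPM in HZ.

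Promoters of such genes are known for the cell cycle homology element, bound by repressor complexes in resting cells, and for CCAAT boxes. The windows of 3 of them are shown as examples. They are RefSeq promoters of GRCm38.p6, 250 bases before to 50 after the start, 5′ to 3′ on the gene's strand. TTTGAA and CCAAT, or their reverse complements TTCAAA and ATTGG, are in capitals. These 3 hold both motifs, as does Mki67, while Ndc80 holds TTCAAA but 0 CCAAT on either strand. The windows of Mki67 and Ndc80 are not shown. Cdk1 lies at chr10:69352863-69353162 on the minus strand, Cenpf at chr1:189688037-189688336 on the minus strand and Aspm at chr1:139454523-139454822 on the plus strand.
Cdk1: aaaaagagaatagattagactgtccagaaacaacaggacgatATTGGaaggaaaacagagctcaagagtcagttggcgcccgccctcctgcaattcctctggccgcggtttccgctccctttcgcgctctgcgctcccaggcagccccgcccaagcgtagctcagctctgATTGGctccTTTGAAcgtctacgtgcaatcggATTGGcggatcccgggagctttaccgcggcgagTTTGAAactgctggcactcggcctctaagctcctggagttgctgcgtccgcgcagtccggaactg
Cenpf: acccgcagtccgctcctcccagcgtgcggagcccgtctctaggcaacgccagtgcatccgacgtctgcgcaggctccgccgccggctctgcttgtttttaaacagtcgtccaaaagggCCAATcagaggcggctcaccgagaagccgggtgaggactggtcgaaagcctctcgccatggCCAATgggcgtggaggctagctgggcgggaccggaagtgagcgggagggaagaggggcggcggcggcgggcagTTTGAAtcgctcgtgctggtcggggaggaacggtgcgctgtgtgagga
Aspm: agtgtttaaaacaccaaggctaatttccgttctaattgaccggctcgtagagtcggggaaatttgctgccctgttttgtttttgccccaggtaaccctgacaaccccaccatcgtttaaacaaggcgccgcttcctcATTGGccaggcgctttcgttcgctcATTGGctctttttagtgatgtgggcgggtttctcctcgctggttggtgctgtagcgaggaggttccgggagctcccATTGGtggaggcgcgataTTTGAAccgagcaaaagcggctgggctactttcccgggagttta
The letters TTTGAA, on either strand, stood in 17 of the 23 G2 and M phase genes with a window (73.9%), in 2 of 18 S phase genes (11.1%) and in 18.1% of the 27025 genes with one. CCAAT stood in 73.9%, 72.2% and 37.9% of the same sets, and both motifs in 60.9%, 11.1% and 7.12%. Letters shared by both motifs would count for each, the first window of a gene was used, and a match is a description of the letters only.

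The remaining lists had fewer than 10 genes past 2-fold each. Over all measured genes 4.97% were higher and 6.33% lower, and without Epcam-low cells 4.29% and 5.41%. Progenitor genes of the pancreas had 4 higher and 0 lower of 8 measured out of 22 (median 1.02), but 4 higher and 1 lower of 11 without Epcam-low cells (-0.06). Prox1, a homeobox factor of the pancreas and liver bud, had 251 CPM in Ngn3Cre and 88.9 CPM in HZ (1.48). Pdx1 was under the minimum, at 11.7 CPM in Ngn3Cre and 19.6 CPM in HZ, as was the hindgut factor Cdx2, at 0.263 and 9.30 CPM. Of gut regional factors only 2 of 28 were measured, and neither passed 2-fold. Hedgehog genes had 2 lower of 4 measured, Gli3 (-2.34) and Gas1 (-1.93). Notch genes had 2 higher and 2 lower of 13, among them the ligands Dll3, at 204 CPM in Ngn3Cre and 81.6 CPM in HZ, and Jag1, at 11.7 and 36.1 CPM. Epithelial adhesion had 0 higher and 1 lower of 15 (0.25), imprinted growth genes 2 higher and 0 lower of 13 (0.26), and protein secretion genes 0 and 0 of 19 (-0.01). Mesenchymal transition genes had 1 higher and 5 lower of 8 (-1.77), and 1 and 3 of 8 without Epcam-low cells. Vim, vimentin, had 65.1 CPM in Ngn3Cre and 260 CPM in HZ (-1.98), and -0.62 without those cells.

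**Figure D5:**
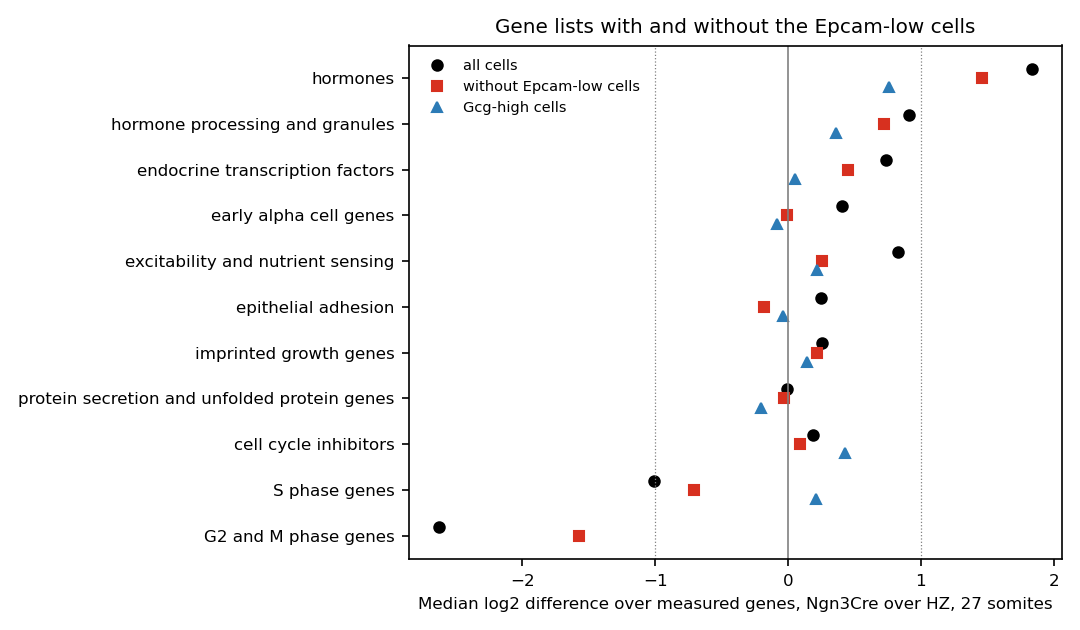
Median log2 difference (Ngn3Cre over HZ, horizontal axis) over the measured genes of 11 lists at 27 somites, for all cells, without Epcam-low cells and within Gcg-high cells, with dotted lines at 2-fold; a list with under 5 measured genes is not drawn. Hormones have a median of 1.84 with all cells and 1.46 without Epcam-low cells, and G2 and M phase genes -2.63 and -1.57.

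Of hepatic markers, 3 or more of 13 were at 10 CPM in 15 of 69 Ngn3Cre and 6 of 26 HZ cells, with summed levels of 0 to 1599 CPM and 1.63 to 836 CPM. Mesenchyme markers were met in 2 Ngn3Cre and 2 HZ cells, with sums up to 1886 and 1589 CPM, and in HZ 1 cell held 99.0% of the reads of the limb and mesenchyme factor Prrx1 (0.0438 CPM in Ngn3Cre, 34.2 CPM in HZ). Endothelium, blood and notochord markers were met in 0 cells of either group, gut epithelium markers in 0 Ngn3Cre cells and 1 HZ cell, and pancreatic progenitor markers in 3 Ngn3Cre and 3 HZ cells. Of blood markers, 8 of 12 had no read in Ngn3Cre and 10 of 12 in HZ. Genes induced by dissociation had 3 higher and 0 lower of 8 measured, beside 4.97% of all genes higher. The 3 were Nr4a1, Junb and Fos. Nr4a1 had 23.3 CPM in Ngn3Cre and 1.75 CPM in HZ, with 56.2% of its Ngn3Cre reads in 1 cell. The part of dissociation in the hormone genes was not tested.

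Pools of other stages allowed a test between the 2 reporters, in cells that the 27 somite comparison did not use. Counts summed by genotype and stage gave 9 pools (Ngn3Cre at 21 and 24 somites, HZ at 18, 21 and 24, and HM at 15, 18, 21 and 24, HM cells being labelled Ngn3-GFP/GFP), fitted with genotype and stage as terms by edgeR's quasi-likelihood test on 18082 genes with 3 residual degrees of freedom. At a Benjamini-Hochberg adjusted p under 0.05, 0 genes rose in Ngn3Cre (0%) and 106 fell (0.586%), while 1760 genes had an unadjusted p under 0.05. DESeq2 called 139 rises and 738 falls, and limma on mean log values 1 and 0. The 106 falls became 0 without Ngn3Cre at 21 somites, 5 without HZ at 21, 6 without Ngn3Cre at 24, 35 without HZ at 24, 38 without HM at 24, 62 without HM at 15 and 162 without HM at 21 somites. Where a genotype was left with 1 pool, that pool was assumed to vary like the others.

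The genes that fell at 21 and 24 somites included gut regional, adhesion and hedgehog genes. Shh, the hedgehog ligand of gut epithelium, fell by 3.24 ± 0.35 (SE, adjusted p = 0.0123), and Cdx2 by 3.53 ± 0.50 (adjusted p = 0.0278). The cadherin Cdh1 fell by 1.35 ± 0.22 (adjusted p = 0.0383). By list, 6 of 28 gut regional factors, 5 of 21 adhesion genes, 3 of 22 progenitor genes and 3 of 26 G2 and M phase genes fell. Of all 18082 genes tested 0.586% fell. The G2 and M phase genes were Aurkb (-1.92 ± 0.31), Cenpe (-2.21 ± 0.38) and Nusap1 (-2.03 ± 0.35), and all 26 had a negative value (median -1.65). Of the 106 genes, 63 were measured at 27 somites, where 48 were lower, 21 of them at least 2-fold, and 2 were at least 2-fold higher. Of all genes measured at 27 somites 6.33% were at least 2-fold lower and 4.97% higher.

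Differences at 27 somites did not all run the same way at earlier stages. Of the 390 higher genes 279 had the same sign at 21 and 263 at 24 somites, and 31 were past 2-fold at both. Of the 496 lower genes 434 and 324 had the same sign, and 62 were past 2-fold at both. How many of all measured genes have that sign or pass 2-fold at those stages was not counted, so these numbers do not measure agreement. Ghrl had a difference of 1.47 at 21 and 0.21 at 24 somites, and its log2 fold change in the test was 1.43 ± 0.93 (edgeR adjusted p = 0.728). Gcg had 3187 CPM in Ngn3Cre and 161 CPM in HZ at 21 somites (4.30), 9791 and 2058 CPM at 24 (2.25), and 0.06 at 27, with 3.76 ± 1.01 in the test (edgeR adjusted p = 0.193). Neurog3 had 2.05 at 21, 0.76 at 24 and 1.30 at 27 somites (1.49 ± 0.49, edgeR adjusted p = 0.312). Cdk1 was lower in Ngn3Cre at all 3 stages, with -1.89 at 21, -0.92 at 24 and -3.19 at 27 somites (-1.59 ± 0.40 in the test, edgeR adjusted p = 0.165).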

How the data were processed

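Cells of 27 somites from 2 reporter groups were compared from a table of read counts per gene and cell and a table of TPM for the same cells, both deposited by the authors. Per the submitters' processing notes the tools include FastQC 0.11.9, Trimmomatic 0.39 and HISAT2 2.1.0 and the builds GRCm38 and mm10. How reads were counted, on which gene models, with or without strand and molecule identifiers, and how cells were filtered: none of this was stated in the sources read. The deposited counts are whole numbers per gene symbol for 26313 symbols, and the TPM values, scaled by the authors to gene length and library, served only as an alternative.

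Of the table's columns, 12 count columns of pools under 10 cells and 735 TPM columns outside these cells were not used. Counts were summed over the cells of a group, and CPM was computed from those sums, with a pseudocount of 1 CPM and a minimum of 20 CPM in the higher pool. No 2 of the 95 cells had the same counts. With 1 pool per group there is no test at 27 somites. Named genes were the 12 largest differences each way among genes at 10 CPM in at least 20% of the cells of the higher pool, up to 4 members of each of 24 lists and 16 landmark genes. Other genes, those of the Epcam-low cells among them, were named after their values were seen, and some genes are not reported here. Members, lists and classes were chosen with earlier results of these data known. Cells over 100000 reads were thinned to that number as a check of depth, which left out 6 Ngn3Cre and 0 HZ cells. Pools of other stages were tested with edgeR 4.0.16 (TMM, filterByExpr), with DESeq2 1.42.0 and limma 3.58.1 as alternatives, in R 4.3.3. The labels name no embryo, so p-values measure only the spread between these pools, which may be technical. The steps were tested on simulated data. Doublets were not called, since each library is 1 sorted cell. For named genes with 100 or more reads, the Poisson interval was at most 16.8% wide to each side in Ngn3Cre and 19.8% in HZ.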

Additional observations from a re-analysis of the deposited data

Results flagged for a closer look

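Sox9 and Afp had opposite pool differences at 27 somites and at both earlier stages, and the difference between stages was not tested. Sox9, a factor of pancreatic progenitors, had 57.3 CPM in Ngn3Cre and 25.7 CPM in HZ at 27 somites (log2 difference 1.13). Its cells there did not follow the pool: the median was 0 CPM in Ngn3Cre and 6.83 CPM in HZ, it was at 10 CPM in 16 of 69 Ngn3Cre (23.2%) and 12 of 26 HZ cells (46.2%), and 1 Ngn3Cre cell held 26.5% of the Ngn3Cre reads. At 21 somites it had 38.8 CPM in Ngn3Cre and 129 CPM in HZ (-1.70), and at 24 somites 50.0 and 257 CPM (-2.34). In the edgeR fit of the earlier pools it fell by 2.03 ± 0.23 (SE, adjusted p = 0.0124), a call lost in 3 of 9 fits that left out 1 pool. Over these and the other alternative fits its log2 fold change ran from -2.21 to -1.11.

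Afp, the fetal liver protein alpha-fetoprotein, had 21.2 CPM in Ngn3Cre and 5.25 CPM in HZ at 27 somites (1.83), and was at 10 CPM in 22 of 69 Ngn3Cre and 3 of 26 HZ cells. At 21 somites it had 65.2 CPM in Ngn3Cre and 477 CPM in HZ (-2.85), and at 24 somites 27.5 and 92.2 CPM (-1.71). Its value in the edgeR fit was -2.72 ± 0.52 (SE, adjusted p = 0.0673).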

How the results depend on the processing

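No paired analysis was possible because replicate numbers name cells and pair nothing. The 390 higher and 496 lower genes at 27 somites became 178 and 241 with a minimum of 50 CPM, 1482 and 1475 with no minimum, 60 and 148 at 4-fold, and 1243 and 948 in Epcam-low cells only. In Gcg-high cells 694 were higher, and with the mean of the authors' TPM 298 were lower. Of 76 named genes past 2-fold, 60 were past it without Epcam-low cells and 68 to 76 under the TMM, mean CPM, TPM, pseudocount, shallow cell, top cell and endocrine cell alternatives. These counts take either direction. Col1a1, lower in Ngn3Cre over all cells, turned to 1.07 with mean CPM, 1.07 with mean TPM and 0.26 without its top cell. With mean CPM and mean TPM it is thus counted although its sign changed. Without Epcam-low cells Hey1 turned to -0.49 and Col1a1 to 0.23. The cause was not tested in these cases.

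Neurog3 at 10 CPM was found in 52.4% of thinned Ngn3Cre cells. In cells thinned to 100000 reads any read of a gene reaches 10 CPM. Shares and marker counts of thinned cells can therefore be higher from the thinning alone, and are not on the scale of those at full depth. At 50 CPM, Pdx1 was found in 7.25% of Ngn3Cre cells, and Pdx1 in 7.69% of HZ cells. With at least 2 markers, progenitor lists were met in 11 Ngn3Cre and 8 HZ cells, hepatic in 33 and 12, mesenchyme in 5 and 4, endothelium in 1 and 1, and gut in 2 HZ cells. With at least 4, progenitor lists were met in 1 Ngn3Cre and 1 HZ cell, mesenchyme in 1 and 1, and hepatic in 7 Ngn3Cre cells. At 50 CPM, progenitor lists were met in 1 Ngn3Cre and 0 HZ cells, hepatic in 3 and 1, mesenchyme in 1 Ngn3Cre cell and neural in 16 HZ cells. In thinned cells, mesenchyme was met in 4 Ngn3Cre cells, and progenitor in 5, gut in 2 and hepatic in 14 HZ cells. Leaving out cells with other markers left 3 Ngn3Cre and 0 HZ cells, so it gave no value.

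At 21 and 24 somites the 0 rises and 106 falls became 139 and 738 with DESeq2, 6 and 177 without a filter, 1 and 61 with 27 somite pools added, 1 and 0 with limma, and 5 and 162 without Epcam-low cells. Without shallow cells 1 gene rose. Leaving out each pool gave 0 to 6 rises and 0 to 162 falls. Each group is 1 pool at each stage, so the spread between embryos was not measured, and depth intervals cover counting error only.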
